A study of Mus musculus with 6 samples.

Results

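The genes of the translation initiation and elongation factors, the proteins that load ribosomes onto messenger RNA and move them along it, were followed in mouse bone marrow RNA with and without Gab2. They were 44 genes chosen by symbol, and all 44 were found among the 23359 gene symbols of the table that covers the series. None stood on more than 1 row, and all 44 reached a mean of 1 FPKM over the libraries, the minimum that left 9916 genes for testing. FPKM are fragment numbers corrected for the length of the transcript and the size of the library, so levels of different genes can be compared per length.

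Polyadenylated bone marrow RNA had been sequenced in 6 stranded libraries. Of these, 3 carried the label Gab2 +/+, here WT with the letters A to C, and 3 the label Gab2 -/-, here NULL with the same letters. GAB2 is a scaffold protein that couples cytokine and growth factor receptors to downstream kinases and phosphatases. Strain, age, sex, any sort of the cells and the number of mice are not given in the labels, which also do not say that the libraries of a group came from separate mice. A p-value here thus covers no more than the spread among these libraries, and that spread may be technical.

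Initiation begins when eIF2, carrying GTP and the initiator transfer RNA, joins the small ribosomal subunit together with eIF1, eIF1A and the large scaffold eIF3. The eIF4F factors, made of the cap-binding eIF4E, the scaffold eIF4G and the helicase eIF4A, bring that subunit to the capped end of a messenger RNA, and eIF5 and eIF5B then allow the large subunit to join. In elongation eEF1A delivers aminoacyl transfer RNA, the eEF1B subunits recharge it with GTP, and eEF2 moves the ribosome by a codon. Well known control points are the recharging of eIF2 by eIF2B and the block of eEF2 by its kinase eEF2K.

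Gab2 itself, the targeted gene, was read at 3.33, 3.10 and 2.43 FPKM in the WT libraries, always in the order A, B, C, and at 0.123, 0.145 and 0.203 FPKM in the NULL libraries, which follows the labels. Its NULL mean was 5.31% of the WT mean (limma adjusted p = 1.83e-05), and the exact two-sided permutation test gave p = 0.1, the smallest p that 3 libraries against 3 allow. Depth was estimated at about 17.8 to 67.6 M fragments a library, and replicate libraries correlated at 0.960 to 0.979 (Pearson r across genes). Granulocyte genes, the usual bulk of marrow, summed to at most 0.186 FPKM, with 3 of 7 markers at 0 in every library, and T cell genes summed to at most 0.148 FPKM. B lineage markers summed to 2048 to 2261 FPKM in WT and to 3190.4 to 3343 FPKM in NULL, with 8 of 10 higher. The labels say bone marrow, while these markers were high for the B lineage and near 0 for granulocytes and T cells. Monocyte and macrophage markers summed to 1.30 to 1.61 FPKM in WT and 3.64 to 4.85 FPKM in NULL, and Lyz2, the 1 of 5 that was tested, rose (log2 change 1.44). Megakaryocyte and platelet markers summed to 0.0111 to 0.138 FPKM in WT and 0.360 to 0.734 FPKM in NULL, with 0 of 4 tested. Plasma cell markers summed to 116 to 122 FPKM in WT and 114 to 123 FPKM in NULL, and of 3 tested Sdc1 fell (log2 change -1.35) and Irf4 and Xbp1 were not called. The part of these cell types in the results on translation factors was not tested. The erythroid marker Hbb-b1 stood apart in WT C at 58.7 FPKM, where the other WT libraries had 8.31 and 7.21 FPKM and no NULL library had more than 0.000359 FPKM.

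Most translation factor genes were lower in the Gab2 -/- libraries. Of the 44, 37 fell, 3 rose and 4 were not called at an adjusted p of 0.05, against 42.0% of all 9916 tested genes called lower and 23.3% called higher. The median log2 change of the members was -0.72, against -0.13 over all tested genes, and single members ranged from -1.34 for Eif2b3 to 0.61 for Eef2k. The libraries of the 2 groups did not overlap for the 37 that fell and the 3 that rose, while such separation was found for 45.1% of tested genes in the lower and 26.0% in the higher direction. A fall of at least 1 on the log2 scale was reached by 9 members, against 5.99% of tested genes.

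**Figure D1:**
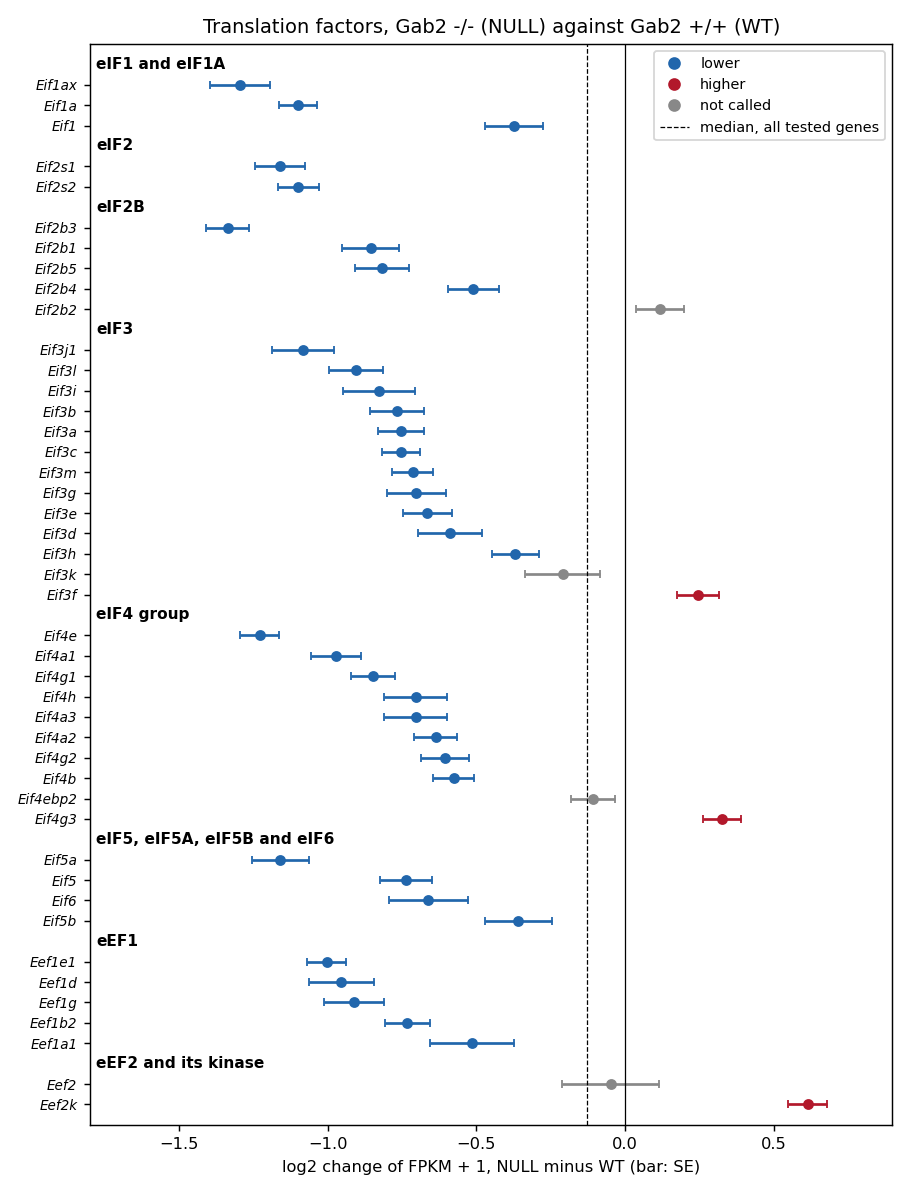
Change of each translation factor gene between Gab2 -/- and Gab2 +/+ libraries, grouped by complex. The horizontal axis is the log2 change of FPKM + 1, with its standard error as a bar. Blue points fell, red points rose and grey points were not called, and the dashed line is the median of all tested genes, -0.13. All points of eIF1 with eIF1A, eIF2, eIF5 to eIF6 and eEF1 are blue, and the 3 red points are Eif3f, Eif4g3 and Eef2k.

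The summed FPKM of the 44 genes was 12305, 12364 and 13809 in WT and 8737, 8136 and 8714 in NULL. Eef1a1 alone gave 6588, 6556 and 7538 FPKM of the WT sums, so this sum is mostly a reading of 1 gene. In bulk RNA, fewer cells of a type and less RNA per cell cannot be told apart. Proliferation genes moved the same way. All 15 fell, with a median log2 change of -1.14, and their summed level was 2318 to 2333 FPKM in WT and 893 to 1204 FPKM in NULL. Their part in the result was not tested.

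The size of the fall depended on how libraries were scaled to each other, and the median of the members was below that of all tested genes under each of the 5 scalings run. With median-of-ratios rescaling 35 members were lower and 4 higher (all tested genes 32.7% and 31.7%). With quantile normalization 29 were lower and 6 higher (33.0% and 28.5%). With a common total of all FPKM 12 were lower and 1 was higher (10.1% and 20.4%), and with a common total that left out small RNA genes, an alternative added after the data were seen, 31 were lower and 5 higher (20.6% and 45.1%).

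The median over all tested genes moved from -0.13 as deposited to 0.0098, -0.03, 0.11 and 0.20 under these 4 rescalings. Relative to it, the member median was -0.60 as deposited and -0.58, -0.30, -0.56 and -0.54 in the same order. Of the members, 12 were called lower on the deposited scale and under all 4 rescalings, against 9.85% of tested genes, namely Eif1a, Eif1ax, Eif2s1, Eif2s2, Eif2b3, Eif3j1, Eif4a1, Eif4e, Eif5a, Eef1d, Eef1e1 and Eef1g. Eef2k was the 1 member called higher under all of them. The share of tested genes called higher under all of them was not computed, so this count has no background to be read against.

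**Figure D2:**
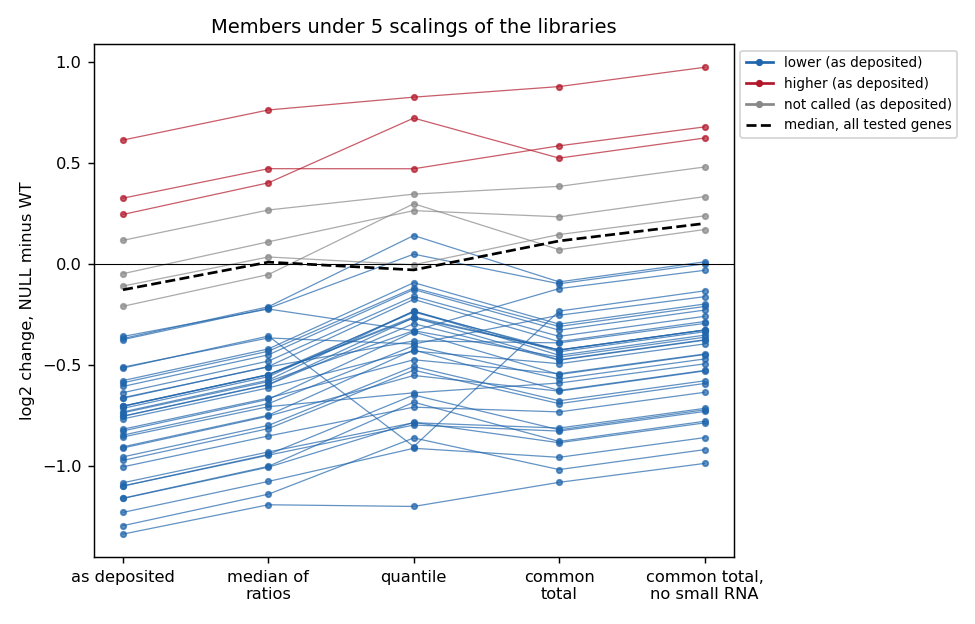
Log2 change of every translation factor gene (vertical axis, NULL minus WT) on the deposited scale and under 4 rescalings of the libraries, with lines joining the values of a gene and colours from the call as deposited. The dashed line is the median of all tested genes. The blue lines lie below the dashed line at every scaling, except those of Eif1 and Eif3h with quantile normalization, and the uppermost line at each is Eef2k.

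The promoters of the members were read for 2 short sequences. The letters CACGTG, an E-box bound by MYC with MAX and by the USF proteins, were searched in RefSeq promoters from 250 bases before to 50 bases after the annotated start. The sequence is its own reverse complement, so both strands are covered. A promoter entry was matched for 35 of the 44 members, and 10 of these genes (28.6%) held the letters, against 12.7% of tested genes and 8.09% of all genes in the table. Of the 10 with an E-box, 6 fell, 2 rose and 2 were not called (median log2 change -0.73), and of the 25 without, 22 fell, 1 rose and 2 were not called (median -0.71). The letters thus stood near the start of members that moved in either direction. The 4 members with an E-box that did not fall come first here, and 4 that fell follow, each as 30 bases on the strand of the gene with the E-box in capitals (build GRCm38.p6).
Eef2k, chr7:120842788-120842817, plus strand: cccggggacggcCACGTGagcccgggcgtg
Eif3f, chr7:108934335-108934364, plus strand: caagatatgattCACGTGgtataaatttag
Eef2, chr10:81176576-81176605, plus strand: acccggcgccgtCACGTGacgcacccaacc
Eif3k, chr7:28981915-28981944, minus strand: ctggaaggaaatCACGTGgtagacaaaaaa
Eif4e, chr3:138527192-138527221, plus strand: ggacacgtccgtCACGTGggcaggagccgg
Eif4a1, chr11:69672595-69672624, minus strand: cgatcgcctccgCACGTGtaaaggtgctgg
Eif5a, chr11:69921443-69921472, minus strand: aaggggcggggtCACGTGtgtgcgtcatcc
Eif4g1, chr16:20672661-20672690, plus strand: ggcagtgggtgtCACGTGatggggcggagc

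Messenger RNAs of ribosomal proteins and several translation factors are known to start with a terminal oligopyrimidine (TOP) tract, through which the mTOR kinase controls their translation. A C at the annotated start followed by at least 4 pyrimidines (C or T) was found exactly at the start for 1 member (2.86%, against 2.89% of tested genes). When the C could lie within 5 bases of the start, 7 of the 35 members (20.0%) held such a stretch, against 23.8% of tested genes. That setting was added after the data were seen. Where each messenger RNA really begins was not measured, and an annotated start can lie elsewhere. The shares thus do not tell how many members have a TOP start. The stretches of Eif3f, which rose, and of Eef1a1, the most abundant member, are shown in capitals. They were the longest of the 7, at 15 and 10 bases. Their first C lay at -4 and -5 from the annotated start, and both stretches ran on past that start. Eif3f was also the 1 member with the match exactly at the start. Part of each stretch may thus lie outside the messenger RNA, and neither need be a TOP tract.
Eif3f, chr7:108934400-108934429, plus strand: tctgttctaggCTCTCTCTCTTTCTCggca
Eef1a1, chr9:78481710-78481739, minus strand: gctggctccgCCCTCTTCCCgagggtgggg

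The eIF1 and eIF1A genes all fell. These small proteins sit on the small subunit during scanning and set how strictly a start codon is chosen. Eif1ax, on the X chromosome, was at 127, 117 and 110.0 FPKM in WT and at 48.9, 41.6 and 52.2 FPKM in NULL. Its mean went from 118 ± 8.51 to 47.5 ± 5.40 FPKM (SD, n = 3), a log2 change of -1.30 (SE 0.0996, limma adjusted p = 4.00e-05). Eif1a, an autosomal gene for a near-identical protein, read 47.3, 43.3 and 45.9 FPKM in WT and 20.6, 20.1 and 21.4 FPKM in NULL. Its NULL mean was 45.5% of WT, and every NULL library lay below every WT library for both genes. How the authors' counting treated fragments shared by the near-identical copies is not stated in the labels or notes used here, so the split between them is uncertain. Eif1, which has 3 annotated pseudogenes, fell less, from 63.2 ± 5.64 to 48.6 ± 4.65 FPKM (SD, n = 3, log2 change -0.37), and its change was 0.05 with quantile normalization and 0.0014 with the common total without small RNA. It was called lower under none of the 4 rescalings.

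Both eIF2 subunit genes among the members fell, to 44.1% and 46.3% of WT. Eif2s1 encodes the alpha subunit, the one phosphorylated by the stress kinases. It stood at 78.6, 78.0 and 73.4 FPKM in WT and at 35.0, 30.1 and 36.4 FPKM in NULL (log2 change -1.16, SE 0.084, limma adjusted p = 3.38e-05). Eif2s2, for the beta subunit, was at 114, 112 and 115 FPKM in WT and 50.3, 50.9 and 56.4 FPKM in NULL (log2 change -1.10). In both genes the lowest WT library lay far above the highest NULL library. The gamma subunit, not a member, is encoded by Eif2s3x and by Eif2s3y on the Y chromosome, and both fell, by 0.96 and 0.38 on the log2 scale. Eif2s3y was called lower under 1 of the 4 rescalings and Eif2s3x under 4.

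The 5 genes of eIF2B, the factor that recharges eIF2 with GTP, did not move as 1 unit. Eif2b3 (chr4:117019402-117087306, gamma subunit) had the largest fall of any member, from 21.1, 19.9 and 19.6 FPKM in WT to 8.06, 7.01 and 7.11 FPKM in NULL. Its NULL mean was 36.6% of WT (log2 change -1.34, SE 0.072, limma adjusted p = 1.52e-05). Eif2b1, for the alpha subunit, was at 25.8, 24.7 and 27.2 FPKM in WT and 15.03, 11.9 and 14.8 FPKM in NULL (log2 change -0.86). Eif2b5, for the catalytic epsilon subunit, changed by -0.82 and Eif2b4, for the delta subunit, by -0.51. Exons of Eif2b4 overlap Snx17 on the opposite strand.

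Eif2b2, the beta subunit, was the exception in eIF2B. It read 16.9, 20.1 and 17.9 FPKM in WT and 21.0, 18.8 and 19.9 FPKM in NULL, so the groups overlapped. Its log2 change was 0.12 (SE 0.081, limma adjusted p = 0.231) as deposited, and it was called higher under 3 of the 4 rescalings. In WT the beta and gamma subunit genes were at similar levels per length, 18.3 ± 1.63 and 20.2 ± 0.783 FPKM, and in NULL they were at 19.9 ± 1.09 and 7.39 ± 0.577 FPKM (SD, n = 3).

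Of the 13 eIF3 genes 11 fell, Eif3f rose and Eif3k was not called. The median log2 change in this complex, the largest of the initiation factors, was -0.71. Eif3j1, for the loosely attached j subunit, fell most, from 48.5, 44.1 and 36.9 FPKM in WT to 19.0, 19.1 and 21.1 FPKM in NULL (log2 change -1.08, SE 0.105, limma adjusted p = 8.83e-05). Its exons overlap Spg11 on the other strand, and its near copy Eif3j2 did not reach the minimum for testing. Eif3l, a subunit of the structural core, was at 137, 133 and 149 FPKM in WT and 82.0, 66.7 and 74.5 FPKM in NULL (log2 change -0.90). All WT values of both genes lay above all NULL values.

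The other eIF3 genes that fell lay closer together. Eif3i, Eif3b and Eif3a, the last the scaffold of the complex, changed by -0.83, -0.77 and -0.75, Eif3c by -0.75, Eif3m by -0.71, Eif3g by -0.70, Eif3e by -0.66 and Eif3d by -0.59 on the log2 scale. Eif3d exons overlap an antisense gene, Gm17638, and Eif3m exons overlap Ccdc73 on the opposite strand. Eif3h changed least of those that fell, from 178 ± 13.1 to 137 ± 5.56 FPKM (SD, n = 3, log2 change -0.37), and its change was 0.14 with quantile normalization and 0.01 with the common total without small RNA.

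Eif3f (chr7:108934417-108942951) moved the other way. It was at 91.5, 97.0 and 87.8 FPKM in WT and at 107, 114 and 107 FPKM in NULL, with every NULL library above every WT library. Its log2 change was 0.25 (SE 0.070, limma adjusted p = 0.0157), the smallest of the 3 rises. The call was lost without WT A (limma adjusted p = 0.0528), with a block on the library letter (0.0505) and with the common total. It held under the other 3 rescalings. Eif3f and Eif3h are the subunits of the MPN protein fold in eIF3.

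Eif3k, which lies at the edge of the core, was at 173, 184 and 235 FPKM in WT and 184, 158 and 166 FPKM in NULL. WT C was the high library, and the groups overlapped. The log2 change was -0.21 (SE 0.126, limma adjusted p = 0.179) as deposited and -0.08 without WT C, and it was 0.30 with quantile normalization, the 1 rescaling under which it was called, as higher.

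The eIF4 genes, which bind the cap and unwind messenger RNA, held 8 that fell, Eif4g3 that rose and Eif4ebp2 that was not called. Eif4e, the cap-binding protein, was at 54.8, 52.7 and 49.95 FPKM in WT and at 22.1, 20.9 and 22.4 FPKM in NULL. Its NULL mean was 41.5% of WT (log2 change -1.23, SE 0.065), and its adjusted p by limma, 1.47e-05, was the lowest of the 44. Eif4a1, the main helicase, was at 562, 559 and 542 FPKM in WT and 291, 260.0 and 296 FPKM in NULL (log2 change -0.97). No NULL library reached the lowest WT library in either gene, and both calls held under each scaling run.

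The related helicase genes and scaffolds fell less. Eif4a2, a close paralog of Eif4a1, was at 113, 108 and 118 FPKM in WT and 67.5, 74.3 and 75.5 FPKM in NULL (log2 change -0.64), and its exons overlap Rfc4 on the opposite strand. Eif4a3, a core protein of the exon junction complex and not of cap-dependent initiation, was at 98.1, 101 and 108 FPKM in WT and 71.9, 54.3 and 62.4 FPKM in NULL (log2 change -0.70). Eif4g1, the main scaffold, was at 102, 109 and 109 FPKM in WT and 61.8, 54.6 and 60.2 FPKM in NULL (log2 change -0.85). All 3 were without overlap. Eif4g2, a scaffold that lacks the eIF4E-binding part, was at 123, 119 and 105 FPKM in WT and 72.7, 74.9 and 78.7 FPKM in NULL (log2 change -0.61). The helicase cofactors Eif4h and Eif4b changed by -0.70 and -0.58.

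Eif4g3 (chr4:137993022-138208508), the less abundant eIF4G scaffold, was at 10.4, 11.4 and 10.3 FPKM in WT and at 13.6, 14.0 and 13.5 FPKM in NULL. Each NULL library was above each WT library, the log2 change was 0.33 (SE 0.064, limma adjusted p = 0.00263), and the call was lost with the common total alone among the rescalings. Eif4ebp2, which keeps eIF4E from eIF4G when it is not phosphorylated, was at 10.3, 11.6 and 9.85 FPKM in WT and 9.36, 9.80 and 9.99 FPKM in NULL. Those groups overlapped (log2 change -0.11, limma adjusted p = 0.229), and the change was above 0 under 3 of the 4 rescalings.

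**Figure D3:**
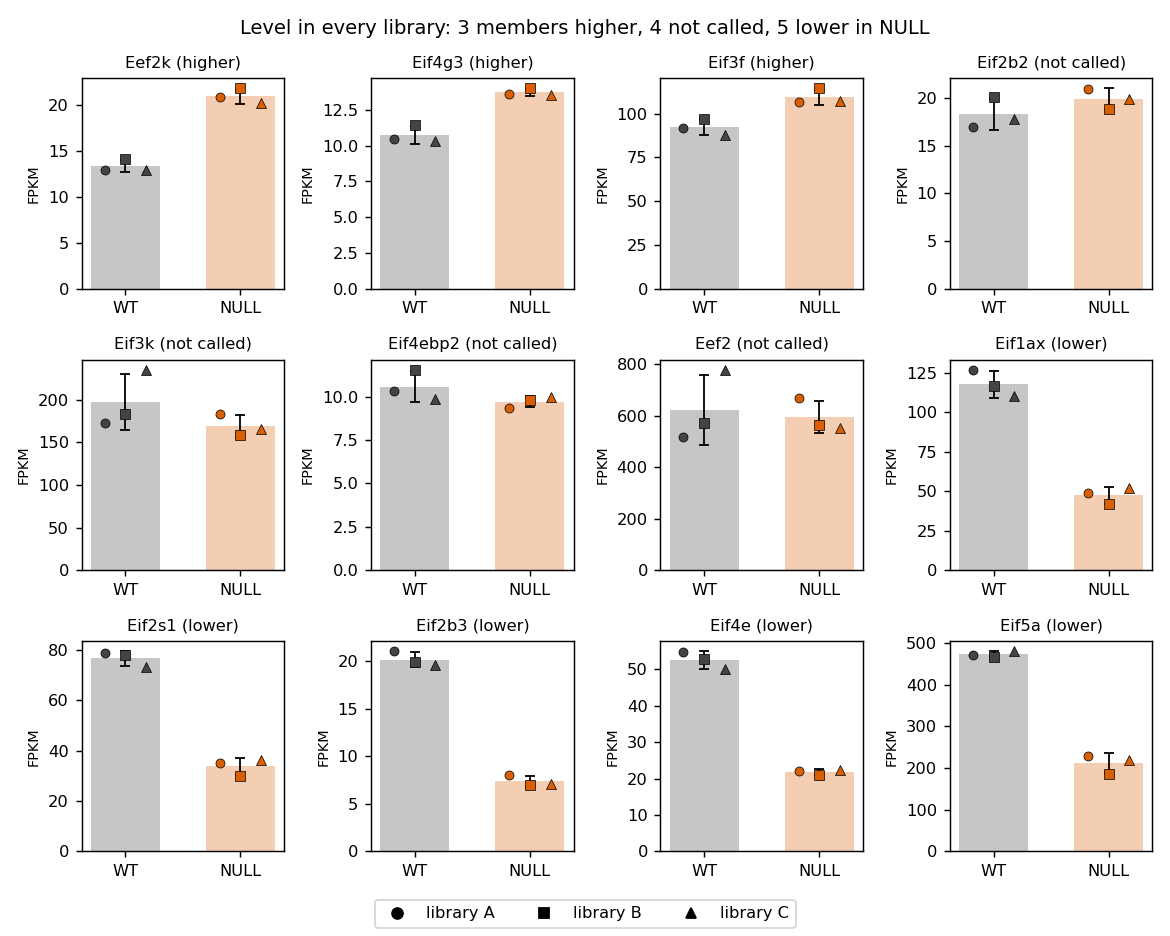
FPKM in every library for the 3 translation factor genes that rose, the 4 that were not called and 5 that fell, with bars for the group mean, error lines for the SD (n = 3) and a marker shape for each library letter. For Eef2k, Eif4g3 and Eif3f every NULL point is above every WT point. Eif3k and Eef2 each have WT C as the highest point, and for the 5 that fell the NULL bar is 36.6% to 44.8% of the WT bar.

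The genes of eIF5, eIF5A, eIF5B and eIF6 all fell. Eif5a encodes the protein that carries hypusine and helps ribosomes past difficult sequences. It was at 471, 467 and 480.1 FPKM in WT and 229.9, 186 and 219.6 FPKM in NULL (log2 change -1.16, SE 0.097, limma adjusted p = 5.43e-05). Eif5, which triggers GTP hydrolysis on eIF2, was at 70.8, 65.0 and 59.1 FPKM in WT and 35.7, 40.8 and 39.2 FPKM in NULL (log2 change -0.74). Neither gene overlapped between groups.

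Eif6, whose protein holds the large subunit apart until it is mature, fell from 33.1 ± 3.91 to 20.7 ± 3.59 FPKM (SD, n = 3, log2 change -0.66), and its exons overlap the antisense gene Gm16098. Eif5b, for the subunit-joining GTPase, was the lowest member by level, at 7.79, 7.83 and 5.89 FPKM in WT and 4.82, 5.78 and 5.44 FPKM in NULL. WT C lay just above the highest NULL library. The log2 change was -0.36 (limma adjusted p = 0.0247), and the call was lost without WT A (adjusted p = 0.0811), WT B (0.0853), NULL A (0.0780) or NULL C (0.0595), and with 3 of the 4 rescalings. Rev1 overlaps its exons on the opposite strand.

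All 5 genes grouped under eEF1 fell. Eef1e1, whose product is better known as a member of the multi-synthetase complex that charges transfer RNA, was at 42.7, 43.2 and 41.9 FPKM in WT and 20.0, 20.1 and 22.3 FPKM in NULL (log2 change -1.004, SE 0.065, limma adjusted p = 2.47e-05). Eef1d, for a GTP-exchange subunit, was at 88.9, 101 and 109.7 FPKM in WT and 57.0, 45.4 and 50.6 FPKM in NULL (log2 change -0.95). The groups did not overlap in either gene. Eef1d exons overlap those of Naprt on the same strand, so fragments there could belong to either.

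Eef1g and Eef1b2, the other exchange-factor subunits, fell from 739 ± 60.8 to 393 ± 26.8 FPKM and from 245 ± 12.3 to 147 ± 6.02 FPKM (SD, n = 3), with log2 changes of -0.91 and -0.73. Eef1a1, the factor that delivers aminoacyl transfer RNA, was the most abundant member at 6588, 6556 and 7538 FPKM in WT and 4861, 4614 and 4976 FPKM in NULL. All NULL libraries were below all WT libraries, and the NULL mean was 69.9% of WT. The log2 change of -0.51 (SE 0.142, limma adjusted p = 0.0138) had a wider error than those of the exchange subunits, and the call was lost without NULL A (adjusted p = 0.0566) or NULL C (0.0545) and with 3 of the 4 rescalings. With quantile normalization, 1 of these 3, the Eef1a1 change was larger, -0.90 (limma adjusted p = 0.503). It was smaller with the common total (-0.23) and with the common total without small RNA genes (-0.13).

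Eef2 and the gene of its kinase stood apart from the eEF1 genes. Eef2, which moves the ribosome along the message, was at 518, 569 and 778 FPKM in WT and at 667, 565 and 552 FPKM in NULL. WT C was the highest library and WT A the lowest, so the WT group spanned all NULL values. The log2 change was -0.05 (SE 0.163, limma adjusted p = 0.816) as deposited, 0.12 without WT C, 0.0035 without NULL C, and above 0 under all 4 rescalings, with a call of higher under 2 of them.

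Eef2k (chr7:120842831-120907450) encodes the kinase that phosphorylates eEF2 and slows elongation. It was at 13.0, 14.2 and 13.0 FPKM in WT and at 21.0, 21.9 and 20.2 FPKM in NULL, with all NULL libraries above all WT libraries. Its mean went from 13.4 ± 0.694 to 21.0 ± 0.814 FPKM (SD, n = 3), or 157% of WT, with a log2 change of 0.61 (SE 0.065, limma adjusted p = 0.000131). The antisense gene Gm15774 overlaps its exons. The libraries were made with a stranded kit per the labels, but the strand setting of the counting is not stated in them.

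Ratios between 2 members in the same library are not altered by a scaling factor per library, and 7 were compared with exact two-sided permutation tests. Eif4g3 relative to Eif4g1 was 0.103, 0.105 and 0.0947 in WT and 0.220, 0.256 and 0.225 in NULL, a 2.32-fold higher ratio. Eif4ebp2 relative to Eif4e was 0.188, 0.219 and 0.197 in WT and 0.424, 0.468 and 0.445 in NULL, 2.22-fold higher. In both the lowest NULL ratio was well above the highest WT ratio.

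Eef2k relative to Eef2 was 0.0251, 0.0249 and 0.0167 in WT and 0.0314, 0.0387 and 0.0366 in NULL, 1.62-fold higher. Eif4a2 and Eif4a3 relative to Eif4a1 were 1.26-fold and 1.20-fold higher. These 5 ratios did not overlap between groups and gave exact permutation p = 0.1 each (Benjamini-Hochberg over the 7, 0.14), the smallest p possible with 3 against 3. The ratios of Eif4g2 to Eif4g1 (1.19-fold) and of Eif1a to Eif1ax (1.13-fold) overlapped between the groups and gave exact permutation p = 0.2.

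**Figure D4:**
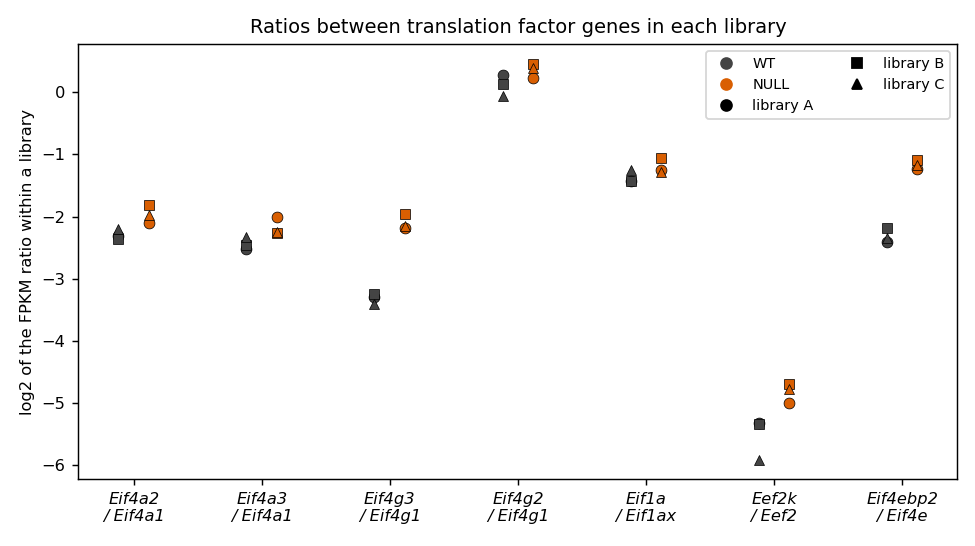
Log2 of the FPKM ratio of 7 pairs of translation factor genes in each library, WT in grey and NULL in orange, with a marker shape for each library letter. The NULL points lie above the WT points without overlap for 5 pairs, with the widest gaps for Eif4g3 to Eif4g1 and Eif4ebp2 to Eif4e, and the points of Eif4g2 to Eif4g1 and of Eif1a to Eif1ax overlap.

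Other genes of the translation machinery, from lists that hold no member, gave mixed counts. Of all tested genes, 42.0% were called lower and 23.3% higher as deposited, the shares to set beside the counts of each list. Of 6 eIF2 kinases and phosphatase adaptors, Eif2ak3, the kinase of the unfolded protein response, rose by 0.77 and Ppp1r15a, an adaptor that brings phosphatase to eIF2, rose by 0.40 on the log2 scale. Eif2ak1, the heme-regulated kinase, fell by 0.39, and 3 were not called. Both rises, and not the fall, were also called under all 4 rescalings. Among 21 tested of 22 other initiation and cap-binding genes, 13 fell, 3 rose and 5 were not called, and 2 of the falls and 3 of the rises held under all 4 rescalings. Denr and Mcts1, which form 1 complex in reinitiation, fell by 1.06 and 0.89. Pdcd4, an inhibitor of the eIF4A helicase, rose from 25.3, 26.8 and 21.5 FPKM in WT to 46.2, 52.4 and 47.0 FPKM in NULL (log2 change 0.96, limma adjusted p = 9.72e-05), and Mknk1, a kinase of eIF4E, rose by 0.58. Eif4ebp1, the relative of Eif4ebp2, was called lower as deposited (log2 change -0.54) and under none of the 4 rescalings.

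Of 7 tested of 8 other elongation and hypusine genes, 6 fell and 1 was not called, among them Dph1 and Dph5, which help to make the diphthamide residue of eEF2 and changed by -0.85 and -0.75. Of 5 tested of 6 termination, recycling and rescue genes, 3 fell, with Etf1 and Gspt1, the release factor genes, at -1.08 and -1.002, and 2 were not called. Of 9 mitochondrial translation factor genes 7 fell and 2 were not called, with Gfm1 and Tsfm at -1.10 and -0.96. Of these falls, 1 of 6 in elongation, 2 of 3 in termination and 2 of 7 in mitochondrial translation held under all 4 rescalings, as did 12 of 37 among the 44 factors. Over all tested genes, 977 of the 4168 called lower held in the same way. The medians of these 3 lists were -0.41, -0.92 and -0.42, against -0.72 for the 44 factors.

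**Figure D5:**
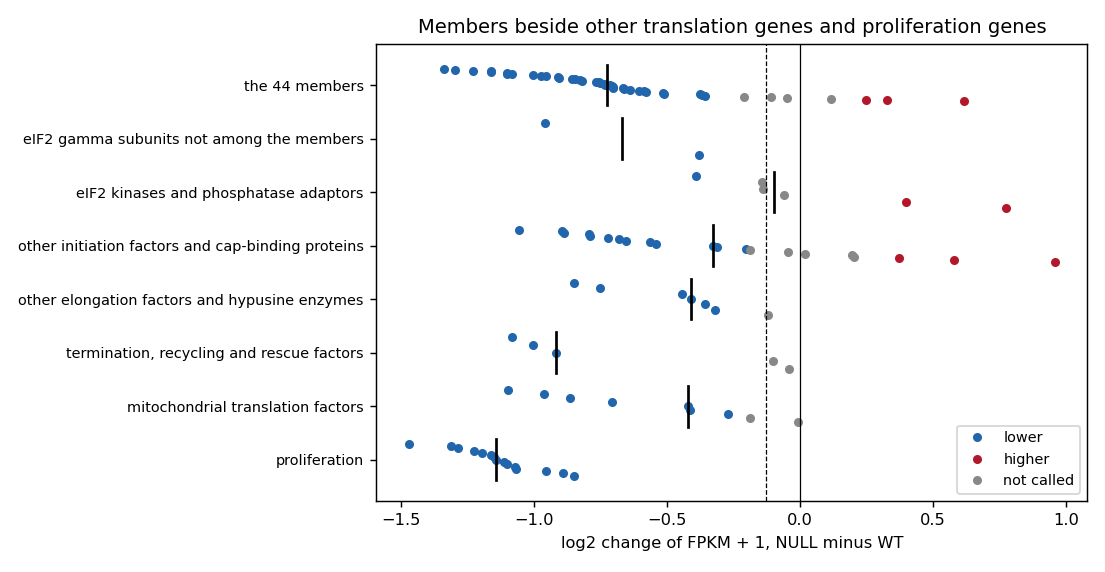
Log2 change of FPKM + 1 (horizontal axis, NULL minus WT) of each tested gene of the 44 factors and of 7 other lists, with a vertical bar at the median of each list and a dashed line at the median of all tested genes; the height within a row only separates points. The proliferation genes are all blue with a median of -1.14, and the eIF2 kinase list lies around the dashed line.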

How the data were processed

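Values were FPKM as deposited by the authors, 1 value per gene symbol and library. Per the submitters' processing notes the tools were Bowtie and Cufflinks and the build GRCm38 (mm10), with no versions. For the annotation, the strand setting and the scaling between libraries the sources used here say nothing. The library tables and the table of the series differed in 0 values. Depth was approximated from the steps among low FPKM values and the annotated transcript lengths, so no counting interval is given.

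The 9916 genes whose mean over the 6 libraries reached 1 FPKM were tested with limma 3.58.1 (R 4.3.3) after taking log2(FPKM + 1). Moderation followed a mean-variance trend, p-values were two-sided and adjusted by Benjamini-Hochberg over all these genes, and the threshold was 0.05. Log2 changes are on that scale, where changes of weakly expressed genes come out too small. The steps were tested on simulated data. Ratios and Gab2 had exact permutation tests.

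The members and all lists were chosen with earlier results of these data known, so counts over them are descriptions. Library values are given for the 2 members of each complex with the largest change, for members that rose or were not called, and for members of the ratios. Other lists give up to 2 called genes in each direction. Markers are given as summed levels and counts, and not every marker gene is reported here. Eif4ebp1, Eif1, Eif3h, Eif5b and Eef1a1 were added after their values were seen. Gene positions and overlaps are from GENCODE vM21 on GRCm38, and promoter sequences from RefSeq on GRCm38.p6.

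Alternatives were other pseudocounts, filters, thresholds and scalings, no variance trend, a block on the replicate letter, summed rows for repeated symbols and leaving out each library.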

Additional observations from a re-analysis of the deposited data

How the results depend on the processing

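There were 18 alternatives, of which 1, the common total without small RNA genes, was chosen after seeing the data. Of the members, 13 had the same call and direction under all that applied to them. The share over all tested genes was not computed. The scaling between libraries mattered most. The median member change was -0.57 with median-of-ratios rescaling, -0.33 with quantile normalization, -0.44 with a common total and -0.34 with a common total without small RNA genes. Members called lower went from 37 to 12 with the common total, and members called higher from 3 to 6 (quantile), 1 (common total) and 5 (common total without small RNA genes). The log2 change of Eef2, -0.05 as deposited, was 0.11 with median-of-ratios, 0.26 with quantile, 0.23 with the common total and 0.33 without small RNA genes, and leaving out each library gave -0.17 to 0.12. For Eif3k it was 0.30, 0.072 and 0.17 with quantile, common total and common total without small RNA genes. For Eif4ebp2 it was 0.035 with median-of-ratios, 0.15 with the common total and 0.24 without small RNA genes. Eif1 and Eif3h were above 0 with quantile (0.049 and 0.14) and without small RNA genes (0.0014 and 0.011). The cause was not tested. A pseudocount of 5 gave log2 ratio differences of 1.02 for Eif4ebp2 to Eif4e and 1.06 for Eif4g3 to Eif4g1, against 1.15 and 1.21. Leaving out each library gave 35 to 37 members lower and 2 to 3 higher. With a replicate block on the library letter 37 members were lower and 2 higher, with the median at -0.72, and Eif3f was no longer called (adjusted p = 0.0505). No share of all tested genes is given for the block or for leaving out libraries, so these counts have no background to be read against. The letters were not taken as pairs: deviations of same-lettered libraries correlated at 0.073 for A, 0.36 for B and 0.13 for C, although each library correlated best with its own letter. Eif5b and Eef1a1 lost their calls under 9 and 7 alternatives. Small RNA genes held 6.03% to 31.4% of the summed FPKM of a library, which enters the common total. With 3 libraries a group, exact tests of single values cannot go below p = 0.1.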
